A study of Mus musculus with 7 samples.

Results

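The passage of a cell from growth into DNA replication and on to division is run by cyclins, the cyclin-dependent kinases (CDKs) they switch on, the inhibitors that hold these kinases back, and the E2F transcription factors that answer to them. The 36 mouse genes described here belong to this machinery. They were chosen by gene symbol, not by any measured value, and make up 36 of 54838 genes in the deposited count table. By role, they are the D-type cyclins Ccnd1, Ccnd2 and Ccnd3, the E-type cyclins Ccne1 and Ccne2, the A- and B-type cyclins Ccna2, Ccnb1 and Ccnb2, and the kinases Cdk1, Cdk2, Cdk4 and Cdk6. The inhibitors are Cdkn1b, Cdkn2a, Cdkn2b, Cdkn2c and Cdkn2d, and the pocket proteins are Rb1, Rbl1 and Rbl2. The E2F factors are E2f1 to E2f8. Cdc25a, Cdc25b, Cdc25c and Wee1 set the phosphorylation of the kinases, and Mybl2, Foxm1, Lin54 and Lin9 belong to the mitotic transcription complexes. Every one of the 36 matched a row of the table and passed the filter on low counts in every comparison, with at least 72 counts in each library.

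RNA came from 7 mouse cultures. V6.5, an established embryonic stem cell (ESC) line, gave 1 library. The other 6 libraries are induced pluripotent stem cell (iPSC) lines, each grown from 1 picked colony and so each 1 clone. Their source was the spleen of male mice 9 days after immunization with SRBC, from which germinal center (GC) B cells were sorted as B220+ CD38- Fas+. GC colonies 1 to 3 came from GC B cells taken in bulk. M colonies 1 to 3 are read here as coming from GC B cells sorted on a Myc-GFP reporter of the endogenous gene, which the study used to take cells activated by T follicular helper (TFH) cells, because the design names only that second source and the titles do not spell out M. All 6 colonies share the same history: 6 days on mouse embryonic fibroblasts (MEF) with cytokines, 10 days of doxycycline (Dox) to reprogram them, 4 days without it, a passage on gelatin, and 45 min of pre-plating to remove fibroblasts. ESC and colonies grew in KO-DMEM with FBS and LIF, which keeps mouse cells pluripotent. No label names a colony's donor mouse or its age, a batch, or the transgenes under Dox.

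In most cells, D-type cyclins with CDK4 or CDK6 phosphorylate the pocket proteins, which releases the activating E2Fs and lets cyclin E with CDK2 start S phase. INK4 inhibitors (Cdkn2a to Cdkn2d) block CDK4 and CDK6, and CIP/KIP inhibitors such as p27, the product of Cdkn1b, act mainly on CDK2 complexes. Mouse ESC are known for a very short G1 phase, for pocket proteins kept phosphorylated and for low INK4 levels, and reprogramming of differentiated cells is known to be restrained by the Cdkn2a and Cdkn2b locus.

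The libraries held from 31139508 to 35728921 counts and from 23609 to 25400 detected genes. Levels are given in CPM, counts brought to a common library size by TMM scaling. The pluripotency markers, led by Tdgf1, summed to 6237 CPM in ESC, 4891 to 5116 in GC colonies and 4697 to 5041 in M colonies. Of these 10 markers, 6 fell in the colonies against ESC, Tdgf1 among them, and 1 rose. B cell markers, led by Cd37, summed to 32.2 CPM in ESC, 27.5 to 29.4 in GC colonies and 18.1 to 21.1 in M colonies, and the defining gene Ms4a1 had 2 counts in M colony 2 and 0 in the other libraries. The 15 primitive endoderm markers, led by Sparc, summed to 1106 CPM in ESC, 3663 to 4288 in GC colonies and 4040 to 6625 in M colonies, and the 15 fibroblast markers, led by Col1a1, to 535.5, 728 to 848 and 774 to 997 CPM. Against ESC, all 15 primitive endoderm markers and 6 of 14 tested fibroblast markers rose in the colonies, among them the defining genes Gata6, Gata4, Sox17, Col1a2 and Thy1. None of either list was at 0 in every library. The part of these cells in the differences from ESC below was not tested. Chromosome 8 stood apart, with a median log2 change of -0.25 in colonies against ESC where the other autosomes ran from -0.05 to 0.08; of the genes described, E2f4 and Rbl2 lie on it. M colonies 2 and 3 held 50 and 39 counts from the Y chromosome, against 5714 to 13237 in the other libraries, so the counts below were repeated without them.

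Colonies differed from ESC at 14 of the 36 genes. Ccnd2, Cdkn2b, Cdkn2a, Cdk6 and Ccnd1 rose, and Cdkn2d, Rbl1, Ccnd3, E2f5, Cdc25b, Ccnb2, Mybl2, E2f4 and Ccnb1 fell. Only Ccnd2 and Cdkn2b moved by more than 1 on the log2 scale; the other 12 changed by 1.17-fold to 1.60-fold. The changes are those of edgeR's quasi-likelihood test with Benjamini-Hochberg adjustment over 20502 genes and a threshold of 0.05, in which the mean of both colony groups is set against ESC. Of all genes tested, 16.9% were called, 9.04% higher and 7.86% lower, so that 38.9% of the 36 genes stands above the share of all genes. The median log2 change was -0.15 for the 36 genes and 0.02 for all genes tested. Without M colonies 2 and 3 the count was again 14, but Ccnb1 was not called (edgeR adjusted p = 0.11) and Cdkn1b was, as lower (0.034). All 6 colony values lay above the ESC value at 8 genes and below it at 20, together 77.8% of the 36, against 51.4% of all genes. With 1 ESC library, the spread comes from the colonies alone and ESC is taken to vary as they do. That library is also 1 line with another history, so a change against ESC cannot be told apart from a difference between lines. Whether the colonies of a group go back to different mice is not stated, so a p-value measures spread among these colonies only, and in bulk RNA fewer cells of a type and less RNA per cell cannot be told apart.

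Taken each against ESC in the same fit, GC colonies differed at 11 of the 36 genes, 3 higher and 8 lower, against 13.7% of all genes (7.82% higher, 5.87% lower). M colonies differed at 13, 5 higher and 8 lower, against 16.8% of all genes (9.15% higher, 7.67% lower). These comparisons share the ESC library, so their values stand side by side and not as separate support. Ccnd2, Cdkn2b, Ccnd1, Cdkn2d, Rbl1, Mybl2, Ccnd3, E2f5, Ccnb2 and E2f4 are named by both, Wee1 by GC colonies, and Cdk6, Cdkn2a and Cdc25b by M colonies. Some of these calls were lost when 1 colony was left out, which also leaves fewer libraries in the fit. In GC colonies, Rbl1 and E2f5 missed the threshold without GC colony 2 (edgeR adjusted p = 0.0501 and 0.0667). In M colonies, Cdkn2d missed it when M colony 1 (0.0832), M colony 2 (0.0742) or GC colony 2 (0.0648) was left out, E2f4 when M colony 2 (0.0514) or 3 (0.0526) was, and Cdkn2a when M colony 1 (0.0805), M colony 3 (0.0727) or GC colony 2 (0.0529) was. Without M colonies 2 and 3, the remaining M colony differed from ESC at 10 genes, 5 higher and 5 lower, and Mybl2 (0.115), E2f5 (0.0627) and E2f4 (0.154) missed the threshold. The GC count was again 11 in that fit, with Cdkn1b (0.0423) called in place of Wee1 (0.0747). The plot of changes from ESC by role shows both columns.

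**Figure D1:**
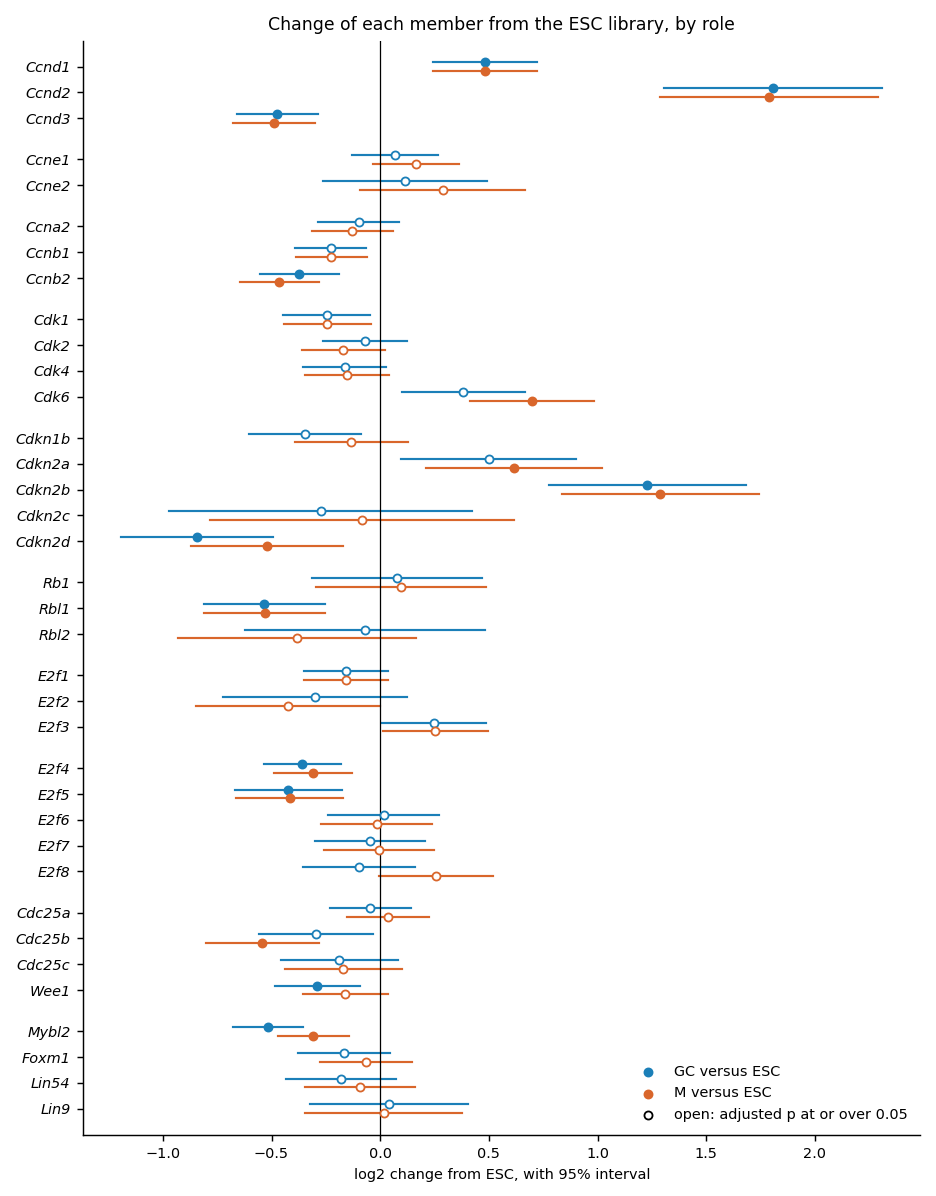
Log2 change from the ESC library for each of the 36 genes (rows, grouped by role), for GC colonies (blue, n = 3) and M colonies (orange, n = 3), with 95% intervals from the edgeR fit; filled points have an adjusted p under 0.05. Ccnd2 and Cdkn2b lie beyond 1 in both groups, and the other points lie between -0.84 and 0.70.

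The D-type cyclins, which link growth signals to CDK4 and CDK6, were the role in which every gene changed. Ccnd2 (ENSMUSG00000000184, chr6:127125162-127152193 on GRCm38, minus strand) stood at 20.5 CPM in ESC, at 67.2, 69.2 and 78.9 CPM in GC colonies 1 to 3 and at 85.9, 56.7 and 69.6 CPM in M colonies 1 to 3. Every colony was far above ESC, and the M values spanned the GC values. The log2 change was 1.80 ± 0.21 (SE), or 3.48-fold, with an edgeR adjusted p = 0.000453.

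Ccnd1 was 77.6 CPM in ESC, 100.03, 110.5 and 114.2 CPM in GC colonies and 119.0, 105.2 and 100.3 CPM in M colonies. It rose by 0.48 ± 0.11 on the log2 scale (edgeR adjusted p = 0.00492), again with no colony as low as ESC. Ccnd3 (ENSMUSG00000034165, chr17:47505051-47599691, plus strand) went the other way, from 295 CPM in ESC to 225.1, 211.2 and 201.0 CPM in GC colonies and 199.5, 216.9 and 214.4 CPM in M colonies. Its change was -0.48 ± 0.08 (edgeR adjusted p = 0.00066), a level 1.39-fold lower with no overlap between ESC and colonies. The gene Bysl overlaps Ccnd3 on the opposite strand and held 2191 to 3280 counts.

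Although single D-type cyclins moved in both directions, their sum in CPM, without length scaling, moved little. It was 392.9 CPM in ESC, 390.9 to 394.1 CPM in GC colonies and 378.8 to 404.4 CPM in M colonies, so that ESC lay inside the range of the colonies. This place of ESC depends on the scale: with division by merged exon length, the ESC sum was below that of every colony. What differed more was the make-up. Scaled per kilobase of merged exon length, so that genes can be set beside each other, Ccnd3 held 64.3% of the D-type cyclin signal in ESC and 44.1 ± 3.10% in the colonies (SD, n = 6). Ccnd1 went from 31.5% to 42.0 ± 1.96%, and Ccnd2 from 4.17% to 13.8 ± 1.61%. Without the length scaling the Ccnd3 share went from 75.0% to 54.1%. GC and M colonies had nearly the same make-up, for example 44.2 ± 3.13% and 44.1 ± 3.76% Ccnd3 (SD, n = 3 each; exact two-sided permutation p = 1, where 0.1 is the smallest p that 3 against 3 can give).

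**Figure D2:**
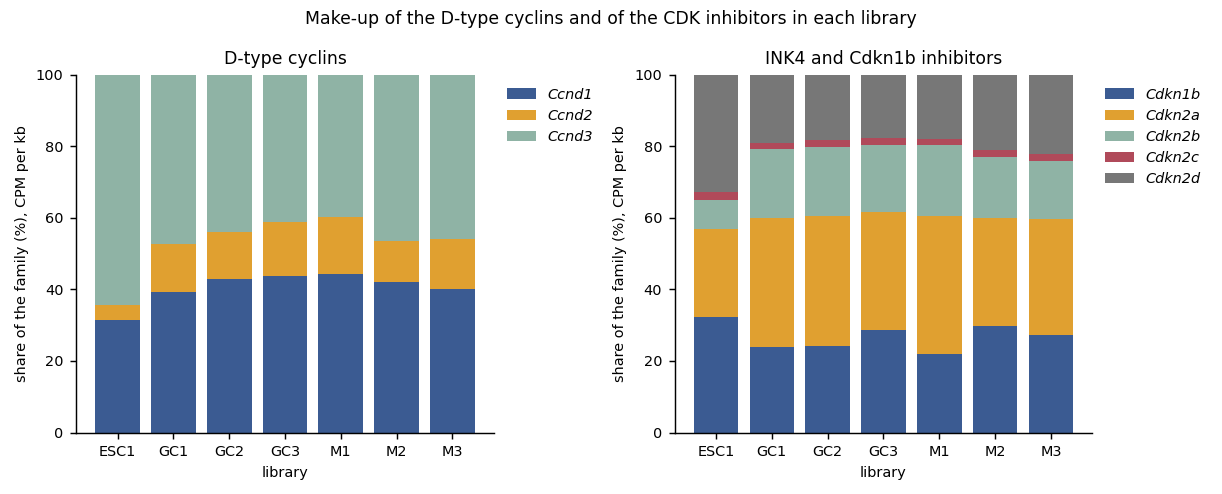
Share of each gene in the summed CPM per kilobase of its family (vertical axis, percent) in each of the 7 libraries, for D-type cyclins (left) and for the INK4 and Cdkn1b inhibitors (right). In ESC, Ccnd3 takes 64.3% of the D-type cyclin bar and Cdkn2d 32.8% of the inhibitor bar; in the 6 colonies they take 39.8% to 47.5% and 17.7% to 22.1%.

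The E-type cyclins, partners of CDK2 at the start of S phase, were not called in any comparison. Ccne1 stood at 217 CPM in ESC and 222 to 261 CPM in the colonies, and Ccne2 at 13.4 CPM in ESC and 13.6 to 18.2 CPM in the colonies. Both lay above ESC in all 6 colonies, but by little: the 95% interval of the log2 change ran from -0.07 to 0.30 for Ccne1 and from -0.16 to 0.56 for Ccne2. Per kilobase, Ccne1 made up 95.5% of the pair in ESC and 95.3 ± 0.271% in the colonies (SD, n = 6).

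The A- and B-type cyclins drive S phase, G2 and mitosis. Ccnb2 (ENSMUSG00000032218, chr9:70407692-70421547, minus strand) was 251 CPM in ESC, 199.6, 187.0 and 195.1 CPM in GC colonies and 175.2, 191.7 and 179.2 CPM in M colonies, and fell by 0.42 ± 0.08 on the log2 scale (edgeR adjusted p = 0.00159). Ccnb1 was 543 CPM in ESC, 472.8, 457.0 and 459.8 CPM in GC colonies and 464.2, 460.0 and 468.0 CPM in M colonies. These 6 colony values are the tightest of all 36 genes, with a coefficient of variation of 1.27%. The fall of Ccnb1, 0.23 ± 0.07 on the log2 scale (edgeR adjusted p = 0.039), was lost in 5 of 12 other settings, where its adjusted p ran from 0.015 to 0.11 in all; it was 0.104 without GC colony 2, 0.0695 without M colony 2 and 0.0713 without M colony 3. Ccna2 was 252 CPM in ESC and 222 to 245 CPM in the colonies and was not called, with an interval from -0.29 to 0.06.

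Mitotic cyclin genes are textbook targets of the MuvB complexes, which bind the cell cycle homology region (CHR, here the letters TTTGAA), often beside CCAAT boxes bound by NF-Y. The windows of both B-type cyclins are shown because these 2 mitotic cyclins were each called lower against ESC, Ccnb1 less firmly than Ccnb2. They are RefSeq windows on GRCm38.p6, from 250 bases before to 50 bases after the annotated start, read 5′ to 3′ on the gene's minus strand, at chr13:100786437-100786736 for Ccnb1 and chr9:70421505-70421804 for Ccnb2. Capitals mark TTTGAA and CCAAT or its complement ATTGG.
Ccnb1: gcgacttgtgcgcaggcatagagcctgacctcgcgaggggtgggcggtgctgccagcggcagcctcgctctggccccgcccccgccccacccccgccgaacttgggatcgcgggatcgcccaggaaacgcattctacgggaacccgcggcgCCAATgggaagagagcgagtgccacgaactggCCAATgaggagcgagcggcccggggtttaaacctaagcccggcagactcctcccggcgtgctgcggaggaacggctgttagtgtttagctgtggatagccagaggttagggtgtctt
Ccnb2: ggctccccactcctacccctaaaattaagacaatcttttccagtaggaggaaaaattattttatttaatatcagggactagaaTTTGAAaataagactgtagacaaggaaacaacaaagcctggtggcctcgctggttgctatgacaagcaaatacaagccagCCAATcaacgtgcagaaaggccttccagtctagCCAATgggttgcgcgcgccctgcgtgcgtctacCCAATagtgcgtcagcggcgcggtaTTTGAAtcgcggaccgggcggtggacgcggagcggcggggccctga
The Ccnb1 window holds 2 CCAAT matches, at bases 152 to 156 and 184 to 188 counted from its 5′ end, and no TTTGAA. Since TTTGAA was the only CHR word searched, this does not show that the Ccnb1 window lacks a CHR. Other forms of the CHR were not searched in any window. The Ccnb2 window holds 3 CCAAT matches, at bases 164 to 168, 197 to 201 and 230 to 234, and 2 TTTGAA matches, at bases 84 to 89 and 255 to 260. Such windows were found for 25 of the 36 genes. Searched on both strands, CCAAT was in 16 of the 25 (64.0%) against 41.1% of 27025 genes, and TTTGAA in 8 (32.0%) against 20.2%. The E2F words TTTCCCGC, TTTGGCGC, TTTCGCGC and TTTGCCGC were in 8 of the 25 (32.0%) against 2.605% of genes, and no match of theirs in the 31 windows of these 25 genes shares bases with a CCAAT or TTTGAA match. These are letter matches, not measured binding.

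Of the kinases, Cdk6, a partner of D-type cyclins, was the one that changed. It was 21.6 CPM in ESC, 28.4, 27.9 and 28.0 CPM in GC colonies and 37.9, 34.7 and 32.2 CPM in M colonies. The values formed 3 steps without overlap, from ESC over GC to M. Of all genes, M and GC values did not overlap at 22.1%, and all colonies lay on one side of ESC at 51.4%. Cdk6 was not called between M and GC colonies (edgeR adjusted p = 0.0651). The rise against ESC was 0.54 ± 0.13 on the log2 scale (edgeR adjusted p = 0.00734); taken apart, it was 0.38 ± 0.13 in GC colonies (adjusted p = 0.0698) and 0.70 ± 0.14 in M colonies (adjusted p = 0.00185). Per kilobase, Cdk6 was a small part of the CDK4 and CDK6 pair, 1.16% in ESC, 1.69 ± 0.0679% in GC colonies and 2.08 ± 0.10003% in M colonies (SD, n = 3 each; exact two-sided permutation p = 0.1, adjusted 0.46 over 23 shares).

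Cdk4, its abundant counterpart, was 425 CPM in ESC and 362 to 411 CPM in the colonies. Cdk1, the mitotic kinase, was 267 CPM in ESC and 205 to 241 CPM in the colonies, and Cdk2 was 113 and 98.9 to 112 CPM. All 3 lay below ESC in each of the 6 colonies and none was called; the log2 intervals ran from -0.34 to 0.02 for Cdk4, -0.43 to -0.06 for Cdk1 and -0.30 to 0.06 for Cdk2. Tspan31 overlaps Cdk4 on the opposite strand and held 1349 to 1868 counts.

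The inhibitors were reshuffled much as the D-type cyclins were. Cdkn2b, which encodes p15Ink4b (ENSMUSG00000073802, chr4:89306299-89311039, minus strand), stood at 5.39 CPM in ESC, 13.0, 13.6 and 11.3 CPM in GC colonies and 15.1, 12.1 and 12.3 CPM in M colonies. It rose 2.39-fold, by 1.26 ± 0.21 on the log2 scale (edgeR adjusted p = 0.000435), with every colony at least 11.3 CPM. Its neighbour Cdkn2a (ENSMUSG00000044303, chr4:89274471-89294653, minus strand) was 13.9 CPM in ESC, 20.8, 21.6 and 16.7 CPM in GC colonies and 24.7, 18.3 and 21.1 CPM in M colonies. All 6 colonies were again above ESC. The rise, 0.56 ± 0.18 on the log2 scale (edgeR adjusted p = 0.0434), did not hold in 6 of 12 other settings (adjusted p from 0.00825 to 0.0872). Leaving out GC colony 1, GC colony 2, M colony 1 or M colony 3 gave 0.062, 0.0872, 0.0518 or 0.0706.

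Cdkn2a has 2 starts whose transcripts share later exons in different reading frames: the proximal start gives p16Ink4a, an INK4 inhibitor, and the distal start gives p19Arf, which acts on p53. Counts per gene do not separate them. Their RefSeq windows (GRCm38.p6, minus strand, same length as above) are shown because the rise cannot be assigned to either. The proximal window is chr4:89282143-89282442 and the distal one chr4:89294570-89294869, with CCAAT or its complement and the E2F words in capitals.
Cdkn2a proximal start: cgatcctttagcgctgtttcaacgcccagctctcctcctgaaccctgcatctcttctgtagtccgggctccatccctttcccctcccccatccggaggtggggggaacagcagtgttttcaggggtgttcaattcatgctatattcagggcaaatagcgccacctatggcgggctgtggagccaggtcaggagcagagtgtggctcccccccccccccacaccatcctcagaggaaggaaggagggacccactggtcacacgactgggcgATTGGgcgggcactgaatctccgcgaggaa
Cdkn2a distal start: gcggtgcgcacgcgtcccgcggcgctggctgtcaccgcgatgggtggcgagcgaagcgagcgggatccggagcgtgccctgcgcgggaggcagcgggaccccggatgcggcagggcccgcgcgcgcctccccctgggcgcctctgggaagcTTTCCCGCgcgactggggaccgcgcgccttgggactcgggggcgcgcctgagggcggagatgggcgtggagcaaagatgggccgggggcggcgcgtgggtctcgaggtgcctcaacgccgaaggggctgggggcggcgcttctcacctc
In the proximal window a single CCAAT lies on the opposite strand at bases 271 to 275. In the distal window the E2F word TTTCCCGC lies at bases 152 to 159.

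Cdkn2d, which encodes p19Ink4d, moved against Cdkn2a and Cdkn2b. Its level was 24.8 CPM in ESC, 14.8, 14.6 and 12.1 CPM in GC colonies and 15.6, 17.1 and 19.2 CPM in M colonies. The fall against ESC was 0.68 ± 0.15 on the log2 scale, 1.60-fold (edgeR adjusted p = 0.00497). M values lay wholly above GC values, yet that difference, 0.32 ± 0.12, had an edgeR adjusted p = 0.198. Cdkn1b was 70.3 CPM in ESC, 53.7 to 56.5 CPM in GC colonies and 54.6, 69.7 and 68.1 CPM in M colonies, and its log2 change against ESC, -0.24 ± 0.11, was not called (edgeR adjusted p = 0.175). Cdkn2c was the rarest of the 36 genes per kilobase, at 2.88 CPM in ESC and 2.26 to 3.20 CPM in the colonies, and its interval against ESC was wide, from -0.83 to 0.47.

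Per kilobase, Cdkn2d and Cdkn1b each held about as much of the inhibitor signal in ESC, 32.8% and 32.2%, ahead of Cdkn2a at 24.7% and Cdkn2b at 8.07%. In the colonies Cdkn2a led with 34.5 ± 3.00% (SD, n = 6), Cdkn1b held 25.9 ± 3.03%, Cdkn2d 19.4 ± 1.81% and Cdkn2b 18.3 ± 1.497%. Cdkn2a held the largest share in each of the 6 colonies, from 30.3% to 38.5%, whereas in ESC Cdkn2d did. This order rests on the scaling, since without division by length Cdkn1b had the largest share of counts, 59.9% in ESC and 53.6% in the colonies. The summed level of all 5 was 117.4 CPM in ESC, 98.8 to 108.1 CPM in GC colonies and 112.4 to 123.9 CPM in M colonies.

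Among the pocket proteins, which hold E2Fs in check, Rbl1 (p107; ENSMUSG00000027641, chr2:157145893-157204534, minus strand) was lower in the colonies. It was 41.2 CPM in ESC, 27.9, 27.5 and 30.1 CPM in GC colonies and 25.2, 30.3 and 30.1 CPM in M colonies, a fall of 0.53 ± 0.12 on the log2 scale (edgeR adjusted p = 0.00601). The Rbl1 window (chr2:157204485-157204784, GRCm38.p6, minus strand) is shown because this was the pocket protein that changed and its gene is a textbook E2F target.
Rbl1: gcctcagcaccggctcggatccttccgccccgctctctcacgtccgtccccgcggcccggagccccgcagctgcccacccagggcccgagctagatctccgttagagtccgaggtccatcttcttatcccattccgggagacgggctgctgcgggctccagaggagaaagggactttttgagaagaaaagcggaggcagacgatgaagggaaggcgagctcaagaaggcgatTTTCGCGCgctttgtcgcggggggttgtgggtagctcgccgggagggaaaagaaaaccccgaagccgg
The capitals are the E2F word TTTCGCGC, at bases 233 to 240. Rb1 was 23.8 CPM in ESC and 20.6 to 28.8 CPM in the colonies, which lay on both sides of ESC. Rbl2 (p130) was 10.9 CPM in ESC and 6.94 to 13.6 CPM in the colonies, the widest spread of the 36 genes with a coefficient of variation of 24.1%. Neither was called, with log2 intervals from -0.28 to 0.45 and from -0.74 to 0.29. Lpar6 and Rcbtb2 overlap Rb1 on the opposite strand with 161 to 683 and 692 to 1366 counts, and Aktip overlaps Rbl2 with 1156 to 1577 counts. Rb1 made up 32.2% of the 3 pocket proteins per kilobase in ESC and 41.1 ± 1.54% in the colonies (SD, n = 6), and Rbl1 56.0% and 46.8 ± 2.23%.

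The activating E2Fs, which switch on replication genes, were not called. E2f1 was 103 CPM in ESC and 89.1 to 96.1 CPM in the colonies, E2f2 17.2 and 10.9 to 15.4 CPM, and E2f3 35.6 and 40.2 to 44.7 CPM. All colonies were below ESC for E2f1 and E2f2 and above it for E2f3, and the log2 changes were -0.16 ± 0.09, -0.36 ± 0.19 and 0.25 ± 0.11 (edgeR adjusted p = 0.24, 0.213 and 0.127).

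Of the repressing E2Fs, E2f4 and E2f5, which work with the pocket proteins, fell. E2f4 went from 226 CPM in ESC to 183.3, 174.8 and 170.3 CPM in GC colonies and 187.1, 177.3 and 182.1 CPM in M colonies, by 0.33 ± 0.08 on the log2 scale (edgeR adjusted p = 0.00734). It lies on chromosome 8, whose median change of -0.25 is close to its own, and the part of that chromosome in this fall was not tested. E2f5 went from 42.4 CPM to 33.0, 31.8 and 30.1 CPM in GC colonies and 30.9, 32.0 and 32.5 CPM in M colonies, by 0.42 ± 0.11 (edgeR adjusted p = 0.0127). The gene 1810022K09Rik overlaps E2f5 on the opposite strand with 1680 to 2452 counts. E2f6 and the atypical E2f7, which represses without a dimer partner, stood at 38.9 and 37.1 CPM in ESC and at 36.6 to 41.4 and 34.8 to 39.1 CPM in the colonies, on both sides of ESC. E2f4 was the most abundant E2F per kilobase in every library, with 51.2% of the family in ESC and 47.9 ± 0.744% in the colonies (SD, n = 6), followed by E2f1 with 18.2% and 19.2 ± 0.542%.

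The CDC25 phosphatases activate CDKs and WEE1 restrains CDK1. Cdc25b was 51.1 CPM in ESC, 41.5, 43.7 and 39.8 CPM in GC colonies and 31.4, 38.7 and 35.1 CPM in M colonies. As with Cdk6, ESC, GC and M values formed 3 separate steps, here downward. Cdc25b was not called between M and GC colonies (edgeR adjusted p = 0.162). It fell against ESC by 0.42 ± 0.11 on the log2 scale (edgeR adjusted p = 0.0178). Wee1 was 120 CPM in ESC, 92.8 to 102 CPM in GC colonies and 105 to 111 CPM in M colonies, and fell in GC colonies against ESC (-0.29 ± 0.09, edgeR adjusted p = 0.0474), a call that 8 of 12 other settings did not make (adjusted p from 0.0187 to 0.116), among them the fits without GC colony 1 (0.112), GC colony 2 (0.116), M colony 2 (0.0655) and M colony 3 (0.0691). Cdc25a, at 139 CPM in ESC and 130 to 145 CPM in the colonies, and Cdc25c, at 38.7 and 31.2 to 37.0 CPM, were not called.

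Mybl2 encodes B-MYB, which joins the MuvB core with its subunits LIN9 and LIN54 to switch on mitotic genes, before FOXM1 takes over. It was 894 CPM in ESC, 614.6, 620.4 and 642.2 CPM in GC colonies and 731.3, 736.8 and 698.4 CPM in M colonies (ENSMUSG00000017861, chr2:163054687-163084688, plus strand). The 3 groups did not overlap, with M between GC and ESC. Mybl2 was not called between M and GC colonies (edgeR adjusted p = 0.0525). Against ESC it fell by 0.41 ± 0.07 on the log2 scale in all colonies (edgeR adjusted p = 0.000721), by 0.51 ± 0.08 in GC colonies and by 0.31 ± 0.08 in M colonies. Foxm1 was 89.0 CPM in ESC and 74.8 to 88.6 CPM in the colonies, Lin54 36.8 and 30.9 to 36.1 CPM, and Lin9 22.2 and 19.95 to 26.2 CPM. None of these 3 was called, with log2 intervals that all lay between -0.37 and 0.37.

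**Figure D3:**
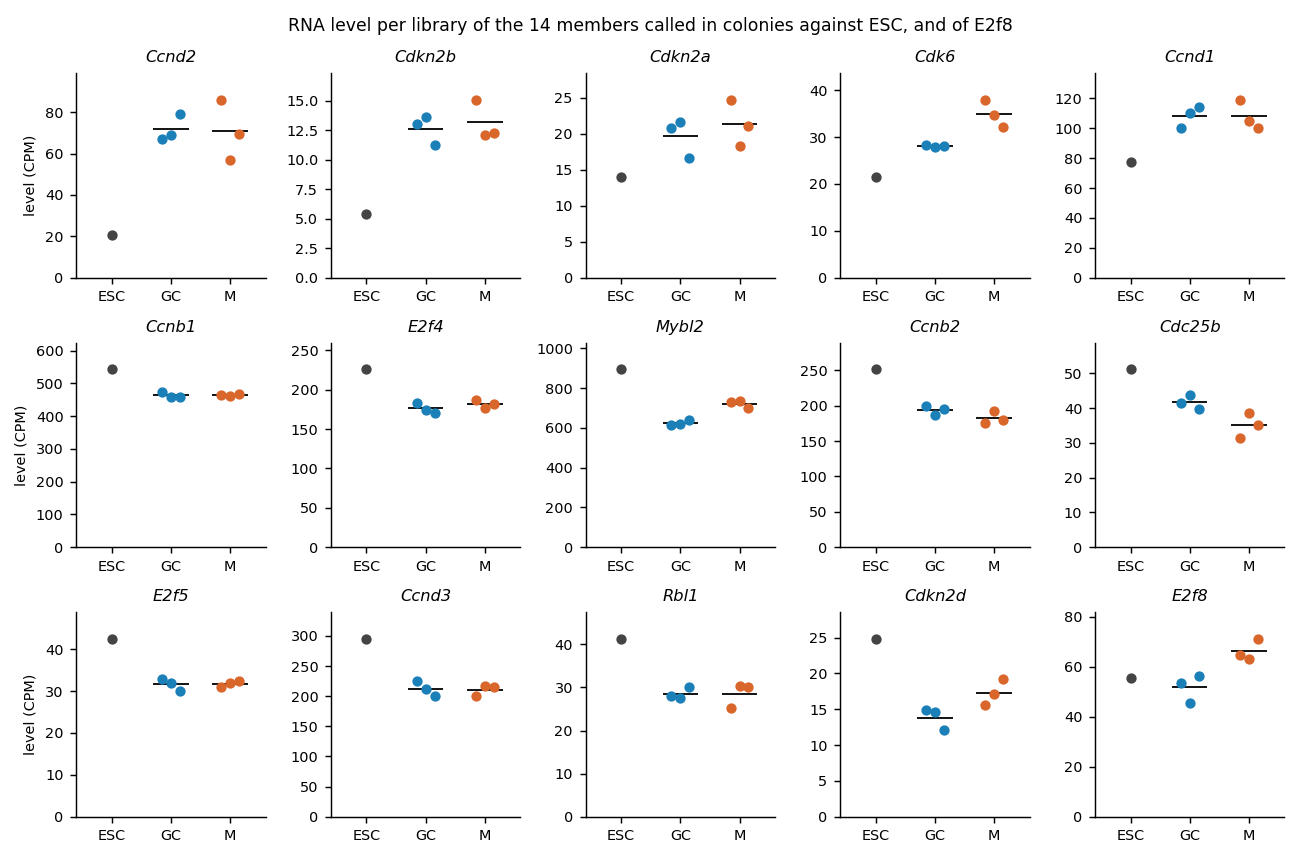
Level in CPM (vertical axes, each from 0) of the 14 genes called in the 6 colonies against ESC, and of E2f8, with 1 point per library and a line at the mean of each colony group (n = 3). At each of the 14 genes called against ESC, all 6 colony points lie on one side of the ESC point; E2f8 stands at 45.4 to 56.4 CPM in GC colonies and 63.1 to 71.2 CPM in M colonies.

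M colonies were then set against GC colonies, which by the reading above differ in the source of the B cell. Donor mice are not named, so a difference by source cannot be told apart from one between donors or clones. In this comparison, E2f8 was the gene of the 36 that changed. E2f8 (ENSMUSG00000046179, chr7:48866429-48881596, minus strand) encodes an atypical E2F that represses E2F targets in late S phase. It was 53.6, 45.4 and 56.4 CPM in GC colonies 1 to 3, 64.8, 63.1 and 71.2 CPM in M colonies 1 to 3 and 55.5 CPM in ESC. All M values lay above all GC values, with ESC inside the GC range. The log2 difference was 0.35 ± 0.09, or 1.28-fold, with an edgeR adjusted p = 0.0323 over 18166 genes. It was called in 10 of 14 other settings, with adjusted p from 0.000838 to 0.32. The call was lost with GC colony 1 (0.057), GC colony 2 (0.23), M colony 3 (0.21) or both M colonies 2 and 3 (0.32) left out. The last of these leaves 1 M library, taken to vary as the GC colonies do. The log2 difference stayed between 0.27 and 0.42 throughout. Summed primitive endoderm markers, given above, were also higher in M colonies 1 and 3 than in any GC colony, with 0 of the 15 called and 9 higher at an unadjusted p under 0.05, against 16.6% of all genes in either direction. Summed B cell markers were lower in every M colony than in any GC colony, with Cd37 called lower. That sum was highest in ESC (32.2 CPM), a line not derived from B cells, so it does not measure B cells. The part of these marker differences in the E2f8 difference was not tested.

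The window of E2f8 is shown as the one gene called between colony groups, at chr7:48881547-48881846 (RefSeq, GRCm38.p6, minus strand), with TTCAAA, the complement of TTTGAA, and ATTGG, the complement of CCAAT, in capitals.
E2f8: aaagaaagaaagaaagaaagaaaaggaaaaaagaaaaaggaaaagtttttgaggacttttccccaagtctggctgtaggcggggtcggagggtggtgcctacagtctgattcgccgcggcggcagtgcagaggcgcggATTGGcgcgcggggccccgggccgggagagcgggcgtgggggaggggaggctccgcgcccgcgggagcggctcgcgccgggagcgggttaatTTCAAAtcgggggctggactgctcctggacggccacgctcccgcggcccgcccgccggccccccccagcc
The CCAAT match is at bases 139 to 143 and the TTTGAA match at bases 231 to 236, both on the opposite strand. No E2F word of the 4 searched is in it.

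Of all genes, 4.05% were called between M and GC colonies, 1.68% higher and 2.37% lower, so that 1 of 36 (2.78%) is near the share of all genes. The median log2 difference was 0.01 for the 36 genes and 0.00 for all genes. M and GC values did not overlap at 7 of the 36 genes (19.4%), against 22.1% of all genes: Mybl2, Wee1, E2f8, Cdkn2d and Cdk6 were higher in M colonies, and Cdk2 and Cdc25b lower. At an unadjusted p under 0.05, 5 genes were higher in M colonies (E2f8, Mybl2, Cdk6, Cdkn2d and Cdkn1b) and 1 was lower (Cdc25b), together 6 of 36 against 16.6% of all genes, so that this count too is near the background.

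Mybl2, with a log2 difference of 0.20 ± 0.06 and an edgeR adjusted p = 0.0525, stood just outside the threshold and was called in 7 of 14 other settings (adjusted p from 0.0135 to 0.331). Cdk6, with 0.31 ± 0.09 and an edgeR adjusted p = 0.0651, was called in 3 of 14 (adjusted p from 0.0271 to 0.253). Cdc25b was lower by 0.25 ± 0.09 on the log2 scale (edgeR adjusted p = 0.162). For 31 of the 35 genes not called, the 95% interval of the difference lay within 0.5 of 0 on the log2 scale. The 4 others were Cdk6, Cdkn2c, Cdkn2d and Rbl2, whose interval was among the widest, from -0.72 to 0.09. The interval of Ccnb1 was the narrowest, from -0.12 to 0.12. A p-value that misses the threshold does not show the levels to be equal.

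**Figure D4:**
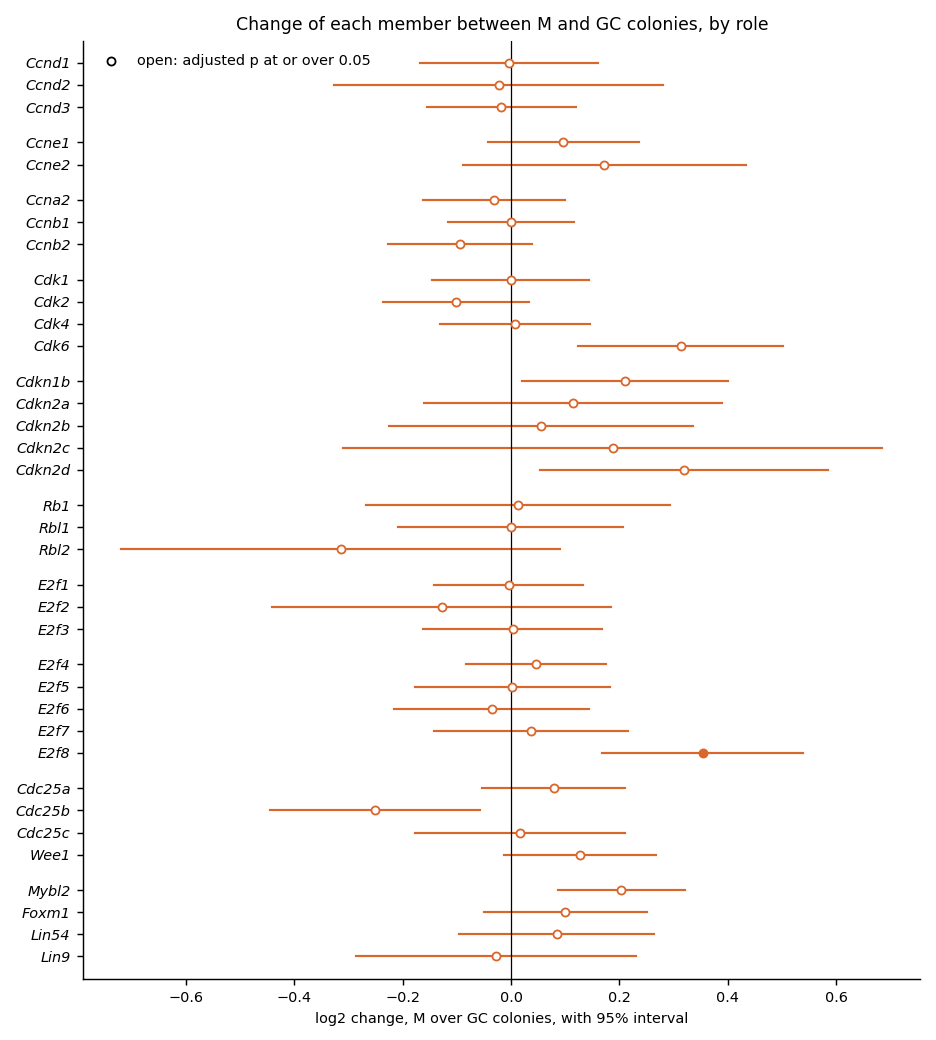
Log2 difference of M colonies over GC colonies (n = 3 each) for each of the 36 genes, grouped by role, with 95% intervals from the edgeR fit; the filled point has an adjusted p under 0.05. E2f8 at 0.35 is the filled point, and most intervals cross 0, while those of Cdk6, Cdkn1b, Cdkn2d, E2f8 and Mybl2 lie above it and that of Cdc25b below it.

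The other genes of the machinery were read from 5 lists. Against ESC, 8 of 31 G1/S target genes fell in the colonies and 0 rose, with a median log2 change of -0.16. The 5 largest falls were those of Cdt1, which licenses replication origins (324 CPM in ESC, 212 to 240 CPM in the colonies, log2 change -0.50), the repair gene Brca1 (-0.41), the helicase subunit gene Mcm5 (-0.37), the uracil glycosylase gene Ung (-0.36) and Gins2 (-0.35), a subunit of the replicative helicase complex. Cdt1, Mcm5 and Gins2 lie on chromosome 8. Of 36 G2/M target genes, 10 fell and 0 rose, with a median of -0.20. Pttg1, which encodes securin, an inhibitor of sister chromatid separation, had the largest fall, from 105.3 CPM in ESC to 51.4 to 57.3 CPM in GC colonies and 40.3 to 42.3 CPM in M colonies (2.23-fold, edgeR adjusted p = 3.51e-07). The mitotic kinase genes Aurkb (-0.62) and Nek2 (-0.45), Cdca3 (-0.54) and Nusap1 (-0.35) followed. Without GC colony 3, 16 G2/M genes were called, 15 lower and 1 higher, and the G1/S count of 8 was 5 without M colonies 2 and 3.

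The list of other inhibitors and ubiquitin ligases held 6 genes that fell and 1 that rose, of 12, with a median of -0.25 (4 called in all without GC colony 2). Those that fell include Fzr1 (-0.44), an activator of the anaphase-promoting complex, its inhibitor Fbxo5 (-0.41), Btrc (-0.39) and the CDK1 inhibitory kinase gene Pkmyt1 (-0.36). Cdkn1c, which encodes the CIP/KIP inhibitor p57 and is imprinted, rose from 8.61 CPM in ESC to 15.4, 17.1 and 14.1 CPM in GC colonies and 19.5, 25.6 and 22.1 CPM in M colonies (2.17-fold, edgeR adjusted p = 0.000472). Cdkn1a, which encodes p21 and is named for its relation to Cdkn1b and Cdkn1c after its values were seen, was 102.9 CPM in ESC and 95.9 to 114 CPM in the colonies and was not called. The call of Pkmyt1 was lost without GC colony 2 (edgeR adjusted p = 0.0693) and without M colony 3 (0.0534).

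Of 32 other cyclins and CDKs, 4 rose and 4 fell, with a median of -0.04. The 5 largest changes were those of Ccno (1.30), Cdk14 (0.80), Cdk20 (-0.61), Cdk19 (-0.49) and Ccng1 (0.39), the gene of cyclin G1, which p53 induces. The count of 8 was 4 with either GC colony 2 or M colony 2 left out, and 3 with M colony 3 left out. Of the genes named, Cdk14 was not called without GC colony 2 (edgeR adjusted p = 0.0911), M colony 1 (0.061), M colony 2 (0.0531) or M colony 3 (0.0724), Cdk20 without M colony 2 (0.0621), M colony 3 (0.0667) or GC colony 1 (0.06), and Cdk19 without M colony 3 (0.056) or GC colonies 1 (0.0526) or 2 (0.0612), each left out alone. Of 7 E2F and DREAM partners, Tfdp1, the dimer partner of E2Fs, fell by 0.24 on the log2 scale (edgeR adjusted p = 0.0431) and lies on chromosome 8. It was not called without GC colony 1 (0.0579), GC colony 2 (0.103), M colony 2 (0.0759) or M colony 3 (0.0811).

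Against the 7.86% of all genes called lower, 25.8% of the G1/S list and 27.8% of the G2/M list were called, all of them lower. The called G1/S genes include Cdt1, Mcm5 and Gins2 on chromosome 8, and the part of that chromosome in this share was not tested. Against the 16.9% of all genes called in either direction, 58.3% of the other inhibitors and ligases and 25.0% of the other cyclins and CDKs were called, and 14.3% of the partners, which is below the share of all genes. Between M and GC colonies, Cdkn1c was higher in M colonies (1.43-fold, edgeR adjusted p = 0.0244), with all M values above all GC values, and Pttg1 lower (1.30-fold, edgeR adjusted p = 0.00971), with all M values below. Both calls were lost when any of several colonies was left out, which also leaves fewer libraries in the fit. Over 14 other settings the log2 difference kept its sign, from 0.32 to 0.61 for Cdkn1c and from -0.41 to -0.33 for Pttg1. Cdkn1c was not called without GC colony 1 (edgeR adjusted p = 0.0742), GC colony 2 (0.0566), M colony 2 (0.102) or M colony 3 (0.106), nor without M colonies 2 and 3 (0.456). Pttg1 was not called without M colony 3 (0.0524), GC colony 1 (0.0519) or GC colony 2 (0.0604), nor without M colonies 2 and 3 (0.168). No other gene of the 5 lists was called there by edgeR, out of 31 G1/S and 36 G2/M genes, 31 tested other cyclins and CDKs, 12 inhibitors and ligases and 7 partners; at an unadjusted p under 0.05, 2 G1/S genes were higher and 3 G2/M genes lower, against 16.6% of all genes in either direction.

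**Figure D5:**
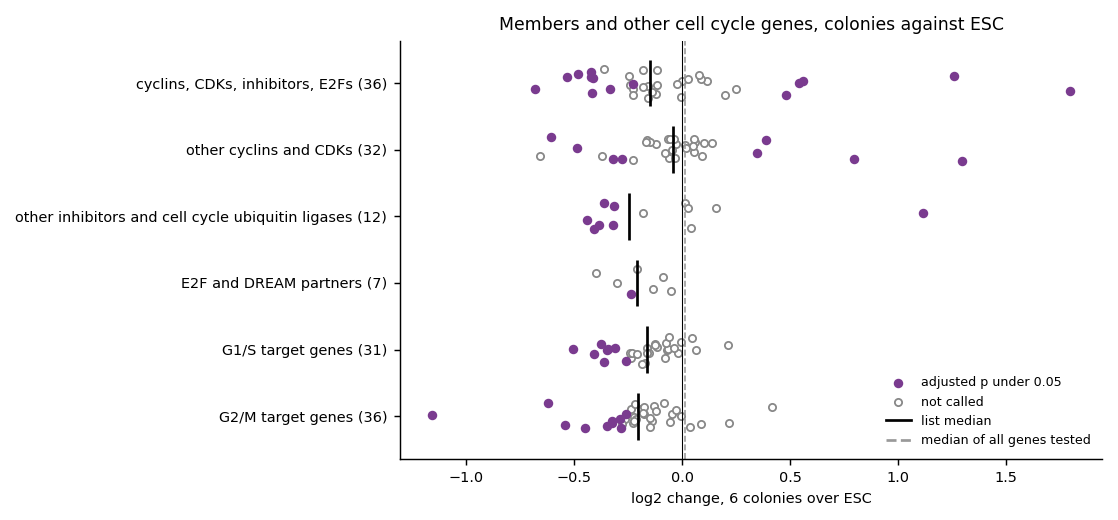
Log2 change of the 6 colonies over ESC (horizontal axis) for the 36 genes and for 5 lists of other cell cycle genes (rows, number of tested genes in brackets), with called genes in purple, others open, a bar at each list median and a dashed line at the median of all genes tested. The G1/S and G2/M rows have their called genes below 0, whereas the cyclins, CDKs, inhibitors and E2Fs spread from -0.68 to 1.80.

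Ranked by mean CPM per kilobase over the 6 colonies, the highest levels were those of Mybl2 (145 ± 11.9, SD, n = 6), Ccnb2 (123 ± 6.15), Cdk4 (117 ± 6.09), Ccnb1 (110 ± 1.40), Ccne1 (88.2 ± 5.58) and E2f4 (73.1 ± 2.51). The same 4 genes led in ESC in the same order, at 193, 164, 131 and 129. In the colonies, Mybl2 was above Ccnb2 in every library, whereas Ccnb2 and Cdk4 changed places between colonies and so do not differ beyond their spread. At the low end stood Cdk6 (2.25 ± 0.299), Rbl2 (1.24 ± 0.299) and Cdkn2c (0.949 ± 0.124), again the 3 lowest in ESC. The largest shift in place was that of Ccnd2, at place 33 of 36 in ESC and 24 in the colonies, followed by Cdkn2b, at place 29 and 22. The order of genes depends on division by merged exon length. Without it, Ccnb1 was higher than Ccnb2 in every library.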

How the data were processed

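The deposited table holds raw counts per gene for 7 libraries, which the authors made with STAR 2.7.10a and featureCounts 2.0.6 on mm10 (GRCm38), per the labels and the submitters' processing notes. These also list DESeq2. The labels' protocols disagree on whether libraries were stranded and on the NovaSeq model, so strand was treated as unknown. Genes on the opposite strand are named above for Ccnd3, Cdk4, Rb1, Rbl2 and E2f5. Likewise, Ints8 (2169 to 2488 counts) overlaps Ccne2, Exosc9 (1215 to 1490) Ccna2, LTO1 (287 to 428) Ccnd1 and Pmel (128 to 217) Cdk2. Spef1 (46 to 136) overlaps Cdc25b, Gm3550 (27 to 59) Cdc25c and Gm2788 (6 to 31) E2f8. Those over Ccnd2, Cdk6 and E2f7, and a further one over Rbl2, held at most 8 counts. Of values from 1 to 49, 68.5% to 72.2% were even (49.5% to 50.9% of values from 1000), so the unit counted may not be the fragment. Levels carry a floor of 3 counts, 0.0840 to 0.0963 CPM, which covers counting error only. Gene coordinates and exon lengths came from GENCODE M21, which held 54809 of the 54838 gene identifiers in the deposited table.

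Genes passing filterByExpr were normalized by TMM. Two-sided tests were run in edgeR 4.0.16 (robust quasi-likelihood, R 4.3.3) at a Benjamini-Hochberg adjusted p of 0.05 over all genes tested. M against GC colonies was fitted on 6 libraries, and comparisons with ESC on 7. Standard errors are the log2 change over the square root of F. Shares between colony groups were compared by exact permutation. On simulated counts, the M against GC fit recovered 69% of changes of log2 size 1 and 92% of size 2 over 18166 genes (4.7% of its calls were false). The iPSC against ESC fit recovered 49% and 72% over 20502 genes (11.7% false). Smaller changes, such as most of those reported above, were not simulated. Alternatives were DESeq2 1.42.0, limma-voom (limma 3.58.1), DESeq2 size factors, no filter beyond 1 count, the colony number as a block, all 7 libraries in the M against GC fit, each colony left out, M colonies 2 and 3 left out, and, added after seeing the data, edgeR without robust estimation.

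All 36 genes are named. Of each list of other cell cycle genes and each comparison, up to 5 called genes with the largest absolute log2 change are named, and markers are given as lists with their most abundant gene. The genes and lists were chosen with earlier results of these data known. Promoter windows of 300 bases are RefSeq's on GRCm38.p6.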

Additional observations from a re-analysis of the deposited data

Results flagged for a closer look

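Cdkn2c, the INK4 inhibitor with the lowest level, was 3.20 CPM in M colony 3 and 2.26 to 2.53 CPM in the other 5 colonies. The gap between M colony 3 and its nearest neighbour was 0.713 of the range of the 6 colonies, above Dixon's 95% critical value for 6 samples. It was the one gene of 36 set apart in this way, and chance sets apart about 1 group in 20.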

How the results depend on the processing

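Between M and GC colonies, the main count of called genes was 1 of the 36 and 735 of all genes (305 higher, 430 lower). Of the 36, 2 were called with DESeq2 size factors, limma-voom or edgeR without robust estimation, 3 without the low-count filter or by DESeq2, and 0 without M colonies 2 and 3, where 1 M library is left. Leaving out 1 colony gave 0 to 2. Over all genes, no filter gave 1290 (641 higher, 649 lower), DESeq2 1110 (541 higher, 569 lower), the fit without M colonies 2 and 3 383, and leaving out 1 colony 264 to 978. The G2/M list had 2 calls in place of 1 without the filter and 0 without M colonies 2 and 3, which also left 0 of the other inhibitors. Leaving out 1 colony gave 0 to 4 for G2/M, 0 to 1 for the other inhibitors and 0 to 1 for the other cyclins and CDKs. The causes were not tested, beyond the smaller number of samples.

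Against ESC, the number called of the 36 was 12 to 16 for all colonies, 8 to 13 for GC and 10 to 15 for M over every alternative run. Of the genes called, 12 of 14, 8 of 11 and 8 of 13 were called in every alternative, and none of them changed sign, nor did E2f8 between M and GC colonies. The partner list had 0 calls in place of 1 without the filter and 2 with DESeq2, limma-voom or edgeR without robust estimation. Without M colonies 2 and 3 there were 4 calls among the other cyclins and CDKs in place of 8 and 5 among G1/S genes in place of 8. Leaving out 1 colony gave 0 to 2 partners, 3 to 8 other cyclins and CDKs, 4 to 7 other inhibitors, 6 to 12 G1/S and 7 to 16 G2/M genes. limma-voom changed the balance over all genes to 1216 higher and 1641 lower, from 1854 and 1611, in all colonies, to 970 and 1191 from 1604 and 1203 in GC, and to 1295 and 1565 from 1875 and 1573 in M.

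Colony numbers were also used as a replicate block. Deviations of same-numbered colonies correlated at 0.105, 0.0915 and 0.140, each the highest of its colony, which is a hint from the data and not from the design. With the block, 3 of the 36 (E2f8, Mybl2 and Cdk6), 1103 of all genes and 2 of the G2/M genes were called between M and GC colonies.

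Without division by exon length, mean shares in the 6 colonies moved by construction: Ccnd1 to 27.7%, Ccnd2 18.2%, Ccnd3 54.1%, Ccne1 93.9%, Ccne2 6.13%, Cdk4 92.4%, Cdk6 7.64%, Cdkn1b 53.6%, Cdkn2a 18.5%, Cdkn2b 11.7%, Cdkn2c 2.29%, Cdkn2d 13.9%, Rbl2 14.8%, E2f2 2.72%, E2f3 8.59%, E2f4 36.3%, E2f5 6.43%, E2f6 7.88%, E2f7 7.39% and E2f8 11.9%. Precision against ESC is limited by its 1 library.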
